A study of Homo sapiens with 12 samples.

Results

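Small noncoding RNA genes made up 92 of the 3090 different genes listed in the deposited comparisons of MCF-10A, MDA-MB-231 and LM2 cells that had passed a capillary-sized constriction with cells that had not. They are all listed genes annotated as miRNA, misc_RNA, snRNA, snoRNA, scaRNA, rRNA, rRNA_pseudogene or scRNA, without RN7SL2 and RN7SL3 and without genes of the mitochondrial chromosome. Of them 71 were listed among 2680 genes in MCF-10A, 14 among 381 genes in MDA-MB-231 and 9 among 97 genes in LM2, and 2 genes were listed in a pair of lines. No gene of the classes rRNA or scRNA was listed in any of the 3 tables.

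MCF-10A cells, which are breast epithelial cells without malignancy, carried a tag on PCNA here, MDA-MB-231 cells come from a triple negative breast cancer, and LM2 is a metastatic line derived from MDA-MB-231. The constriction groups were cells collected after passing microfluidic channels 5 µm wide, 5 µm high and 150 µm long under 7 to 33 cmH2O, and the control groups of the same lines had not passed them. Each group had 2 libraries, 12 in all, so any single exact permutation test of 2 libraries against 2 cannot give a p-value below 0.333. Each table holds only the genes with an unadjusted p-value under 0.05 in the authors' own comparison, so which genes are listed, and largely their direction, was decided on these same libraries. The defining markers of the lines could not be used to check the labels, because of 4 marker lists only KRT19, PECAM1 and PDGFRB were listed, all in MCF-10A and all with 0 reads in both constriction libraries. KRT19, a luminal keratin, had 5 and 21 reads in the control libraries, PECAM1, an endothelial adhesion protein, had 71 and 48, and PDGFRB, a fibroblast receptor, had 22 and 22.

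Small noncoding RNAs work without being translated. MicroRNAs are cut from hairpins and guide Argonaute proteins to messenger RNAs through their seed, bases 2 to 8. Box C/D snoRNAs guide ribose methylation and H/ACA snoRNAs guide pseudouridylation, mainly of ribosomal RNA, and most of them are processed out of introns of host genes. Most U snRNAs are parts of the spliceosome. The 7SK, 7SL and Y RNAs, annotated here as misc_RNA, act in transcription control, protein secretion and RNA quality control. Each of them left many pseudogene copies in the genome. Mature forms of most of these RNAs carry no poly(A) tail, and the libraries were made from RNA selected on poly-T beads.

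The counts are of sequenced fragments that overlap the annotated gene, and whether these came from mature RNA or from longer transcripts was not tested. The 22 listed miRNA genes span 62 to 110 bases, whereas their mature products are 17 to 24 bases long. A mature sequence was found in RefSeq (build GRCh38.p14) for all 22 miRNA genes, 32 sequences in all, and these carried 32 different seeds, so no listed pair shared a seed. The sequences below are those of the miRNA genes that were read after transit in any line, and of the miR-23b and miR-27b neighbours that differed most between control libraries, with the seed in capitals. Both arms of a hairpin are given where RefSeq holds both, since the counts are of the gene.
hsa-miR-331-3p: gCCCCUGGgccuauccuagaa
hsa-miR-331-5p: cUAGGUAUggucccagggaucc
hsa-miR-643: aCUUGUAUgcuagcucagguag
hsa-miR-6784-5p: gCCGGGGCuuugggugaggg
hsa-miR-6784-3p: uCUCACCCcaacucugccccag
hsa-miR-23b-3p: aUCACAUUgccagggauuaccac
hsa-miR-23b-5p: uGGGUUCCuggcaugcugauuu
hsa-miR-27b-3p: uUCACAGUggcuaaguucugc
hsa-miR-27b-5p: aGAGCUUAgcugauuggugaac
hsa-miR-619-3p: gACCUGGAcauguuugugcccagu
hsa-miR-548u: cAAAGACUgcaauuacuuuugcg
hsa-miR-4435: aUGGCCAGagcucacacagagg
hsa-miR-4296: aUGUGGGCucaggcuca
hsa-miR-3153: gGGGAAAGcgaguagggacauuu

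The snoRNAs with the most control reads in MCF-10A are shown next, with the boxes that were searched for. Capitals mark the C box TGATGA and the D box CTGA of the C/D snoRNAs and the ACA box of the H/ACA snoRNAs.
SNORD12C: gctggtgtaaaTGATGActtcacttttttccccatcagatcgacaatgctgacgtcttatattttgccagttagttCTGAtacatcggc
SNORD104: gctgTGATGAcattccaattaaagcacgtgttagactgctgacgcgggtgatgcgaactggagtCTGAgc
SNORD100: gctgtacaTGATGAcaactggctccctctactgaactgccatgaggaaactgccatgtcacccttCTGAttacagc
SNORA33: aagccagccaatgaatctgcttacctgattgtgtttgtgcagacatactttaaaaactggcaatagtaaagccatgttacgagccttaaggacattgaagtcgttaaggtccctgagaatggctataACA
SNORA71A: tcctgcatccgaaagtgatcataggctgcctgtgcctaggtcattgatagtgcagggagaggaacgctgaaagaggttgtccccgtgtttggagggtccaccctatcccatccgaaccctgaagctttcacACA

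A TGATGA in the first 20 bases together with a CTGA in the last 20 bases, searched on the RNA strand only, was found in 8 of the 10 listed genes named SNORD, against 67.3% of the 278 annotated ones, and SNORD3A and SNORD62B had no such match. An ACA in the last 8 bases was found in 10 of the 11 listed genes named SNORA, against 91.2% of the 147 annotated ones, and SNORA74D had none. The matches are letters in these windows and were not tested as working boxes.

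The remaining classes were mostly diverged copies. Identity over the shorter sequence was 73.5% to 94.9% between the 12 Y RNA copies (annotated as RF00019) and the closest of RNY1, RNY3, RNY4 and RNY5. It was 68.8% to 84.1% between the 4 7SK copies and RN7SK, 69.8% to 86.6% between the 8 7SL copies and RN7SL1, and 74.8% to 91.4% between the 9 U6 copies and RNU6-1. The 3 copies of 5S ribosomal RNA were 74.3% to 87.3% identical to RNA5S1. For 16 of the 92 genes another annotated small RNA gene was at least 90% identical over at least 90% of the length, and reads of those genes could have been divided between copies. The Y RNA copy listed in both MCF-10A and MDA-MB-231 (ENSG00000252367, chr20:5113993-5114083, minus strand, outside other genes) is shown with the 15 bases of the longest run that it shares with RNY4 in capitals.
RF00019: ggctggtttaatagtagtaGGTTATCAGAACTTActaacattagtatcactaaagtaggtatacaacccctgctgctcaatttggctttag

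Most of the genes lay inside other genes. Of the 92, 57 lay in an intron of a gene on the same strand, 5 overlapped an exon of one, 14 lay only in an intron of a gene on the opposite strand, and 16 lay outside other genes. Of the miRNA genes 20 of 22 lay within a gene on the same strand, of the snoRNA genes 21 of 27, and of the snRNA genes 8 of 15. Of the misc_RNA genes only 10 did (41.7%). A host gene on the same strand stood in the same table for 1 of 50 such genes in MCF-10A, 1 of 8 in MDA-MB-231 and 0 of 5 in LM2, where 13.9%, 1.59% and 0.321% of the genes that the authors adjusted over were listed. Protocols for stranded and for unstranded libraries are both described without a statement of which one was followed, so reads of a gene within or opposite another gene cannot be told apart from reads of that gene.

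Library totals ran from 29978695 to 53584754 reads, and the listed small RNA genes took between 26 and 2964 reads of a library. In a library of this depth, 3 reads correspond to 2.37 to 3.81 normalised counts, and this was taken as the limit that a count of 0 allows, for counting error only. Normalised counts are reads divided by the authors' size factor of the library, and values below are read counts unless named as normalised. RNA was measured in bulk, so fewer cells of a kind and less RNA per cell cannot be told apart. The paper lists less total RNA for every constriction sample of MDA-MB-231 and LM2 than for its control. For MCF-10A it lists less in replicate 1 and more in replicate 2. The part of RNA amount in the counts below was not tested.

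**Figure D1:**
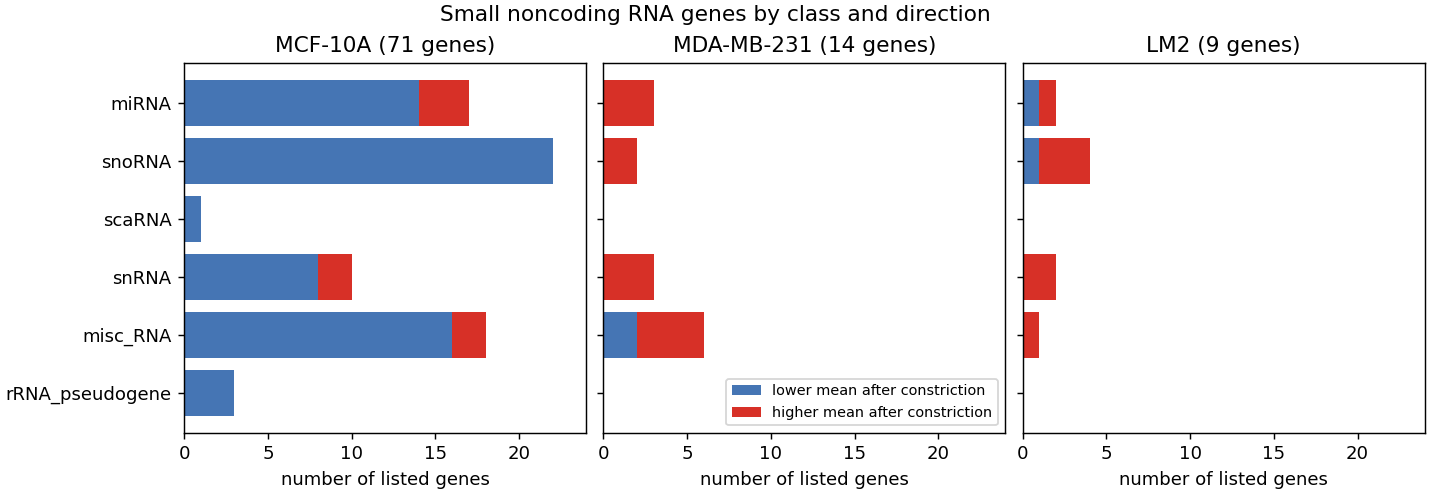
Number of listed small noncoding RNA genes (x axis) by annotated class (y axis) in each cell line, coloured by whether the mean normalised count of the 2 constriction libraries was lower or higher than that of the 2 control libraries. In MCF-10A 64 of 71 genes were lower, and in MDA-MB-231 and LM2 12 of 14 and 7 of 9 were higher.

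In MCF-10A, small noncoding RNA genes of every listed class were read at low levels in the control cells and had no read after transit. Of the 71 genes, 64 were without a read in either constriction library, among them all 22 snoRNA genes, the 1 scaRNA gene and the 3 rRNA_pseudogene genes, with 14 of 17 miRNA, 16 of 18 misc_RNA and 8 of 10 snRNA genes. The remaining 7 had a higher mean after transit, and 1 of the 71, RNU6-450P, had no control read, against 0.858% of all listed genes. Among all 2680 listed genes 89.6% likewise lacked constriction reads and 94.5% had a lower mean, so the share among the small RNA genes, 90.1% for either, was near that of the whole table.

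The levels in the control cells were small. The 71 genes had a median of 9 reads (0 to 46) in control replicate 1 and of 17 reads (0 to 86) in control replicate 2. The median of the control means was 10.9 normalised counts. For the 64 genes without a constriction read the control mean exceeded that limit by at least 2.08-fold to at least 13.8-fold. Of the 25 MCF-10A genes named by the rule given below, the fold or its bound moved by over 1.5 times in 13 without control replicate 2. It moved that far in 9 without control replicate 1 and in 7 without either constriction library in turn. The bound of SNORA71A fell from 7.28 to 1.17 without control replicate 2.

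edgeR's quasi-likelihood test called 64 of the 71 genes lower and 0 higher, with adjusted p-values of 0.00468 to 0.0103. Of all listed genes 91.3% were called lower and 0.149% higher. The same 64 are the genes without a constriction read. The fit used listed genes only, so its spread was estimated from genes selected on these same libraries. Such calls describe the listed genes and give no independent support for a difference. With all 4 libraries, 0 of the 71 were called when library totals replaced the authors' size factors, although this moved no MCF-10A library by more than 0.0346 on the log2 scale. The estimated prior degrees of freedom were 24.4 with the size factors and 4.16 with library totals. With a library left out, 0 were called without constriction replicate 1 or without control replicate 2, 15 without control replicate 1 and 5, all of them higher, without constriction replicate 2. In these fits the group of 1 library is assumed to vary like the other group and fewer libraries inform the spread, so a lost call there says nothing on its own about the size of a difference. Of the 71 genes, 66 had groups that did not overlap, against 96.8% of all listed genes.

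**Figure D2:**
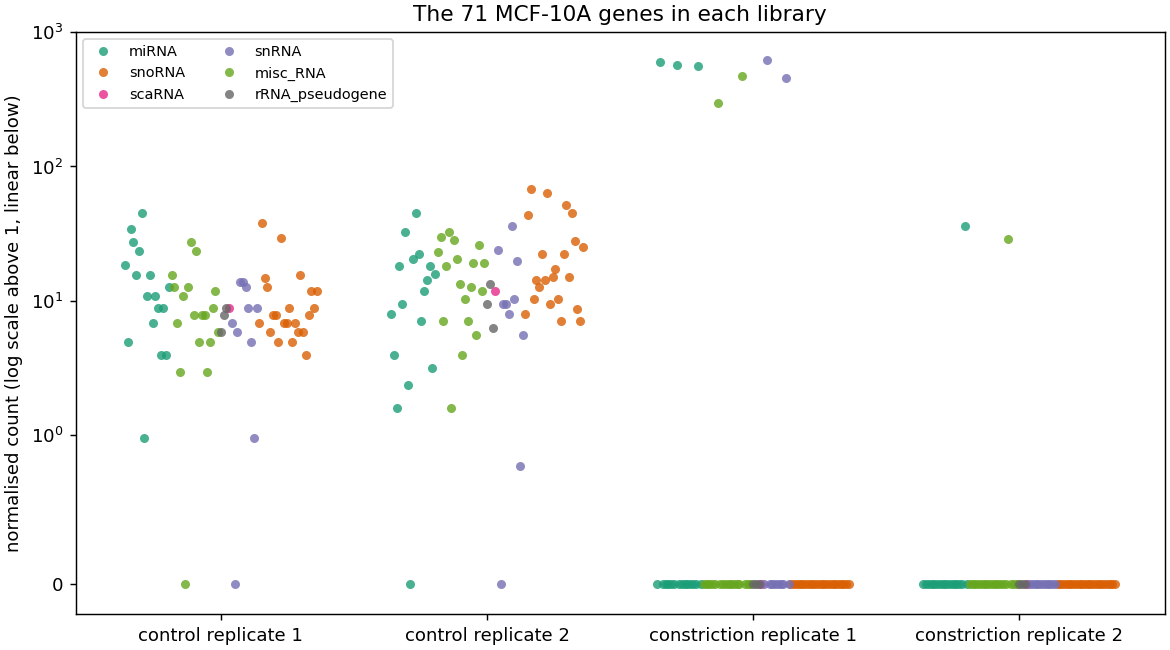
Normalised count (y axis, log scale above 1 and linear below) of the 71 MCF-10A genes in each of the 4 libraries (x axis), 1 point per gene, coloured by class. Control points lie mostly between 1 and 70, constriction points lie at 0 except for 7 genes in replicate 1 and 2 genes in replicate 2.

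The most control reads were on snoRNA genes, in counts that are not corrected for gene length. SNORD12C, a C/D snoRNA in an intron of ZFAS1 (chr20:49278940-49279028, plus strand), had 30 and 80 reads in the control libraries and 0 and 0 after transit. Its control mean was 46.3 ± 23.9 normalised counts (SD, n = 2), at least 13.8-fold above the limit of the constriction libraries, or at least 8.74-fold without control replicate 2. SNORA33 and SNORD100 lie 341 bases apart in introns of RPS12, a ribosomal protein gene. SNORA33 (chr6:132817219-132817348) had 15 and 86 control reads and SNORD100 (chr6:132816802-132816877) had 16 and 65, and neither had a read after transit. Both were several times higher in control replicate 2 than in control replicate 1, so their control means of 41.3 ± 37.6 and 33.5 ± 25.2 normalised counts (SD, n = 2) are loosely known.

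SNORD104, in an intron of SNHG25 (chr17:64146083-64146152, plus strand), was even between control libraries, with 39 and 55 reads, or 40.8 ± 3.71 normalised counts (SD, n = 2), and had 0 and 0 reads after transit, at least 12.1-fold lower. SNORA71A, in an intron of SNHG17 (chr20:38427309-38427442, minus strand), had 4 and 57 control reads and 0 and 0 after transit. The single scaRNA gene, SCARNA13, belongs to the class that guides modification of snRNAs in Cajal bodies and lies in an intron of SNHG10, overlapping an exon of GLRX5 on the opposite strand. It had 9 and 15 control reads and none after transit. SNORD69 and RF00569, 1282 bases apart in introns of GNL3, had 9 and 22 and 6 and 19 control reads.

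Among the miRNA genes, MIR3936 and MIR590 had the most control reads of those without a constriction read. MIR3936, in an intron of its host MIR3936HG (chr5:132365490-132365599), had 16 and 57 control reads. MIR590, in an intron of EIF4H (chr7:74191198-74191294), had 24 and 41 control reads, or 27.9 ± 6.28 normalised counts (SD, n = 2), at least 8.31-fold above the limit of the constriction libraries.

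MIR23B and MIR27B, 140 bases apart on chromosome 9 in an intron of C9orf3, were chosen for description after their values were seen. MIR23B had 35 and 2 control reads and MIR27B had 46 and 3. In both neighbours control replicate 1 was far above control replicate 2, by 21.7-fold and 19.0-fold in normalised counts, and the constriction libraries at 0 lay only just below the lower control library. MIRLET7D, a let-7 family gene also named after its values were seen, had 19 and 10 control reads and none after transit.

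The control libraries also differed from each other. Normalised counts were higher in control replicate 2 than in control replicate 1 for 50 of the 71 genes (70.4%), against 43.5% of all 2680 listed genes. By class this was so for 19 of 22 snoRNA and 15 of 18 misc_RNA genes and for 8 of 17 miRNA, 5 of 10 snRNA, 2 of 3 rRNA_pseudogene and 1 of 1 scaRNA genes, and the difference between classes was not tested. For 6 of the 71 genes the control libraries differed by over 5-fold. The part of this difference in the comparison with the constriction libraries was not tested.

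**Figure D3:**
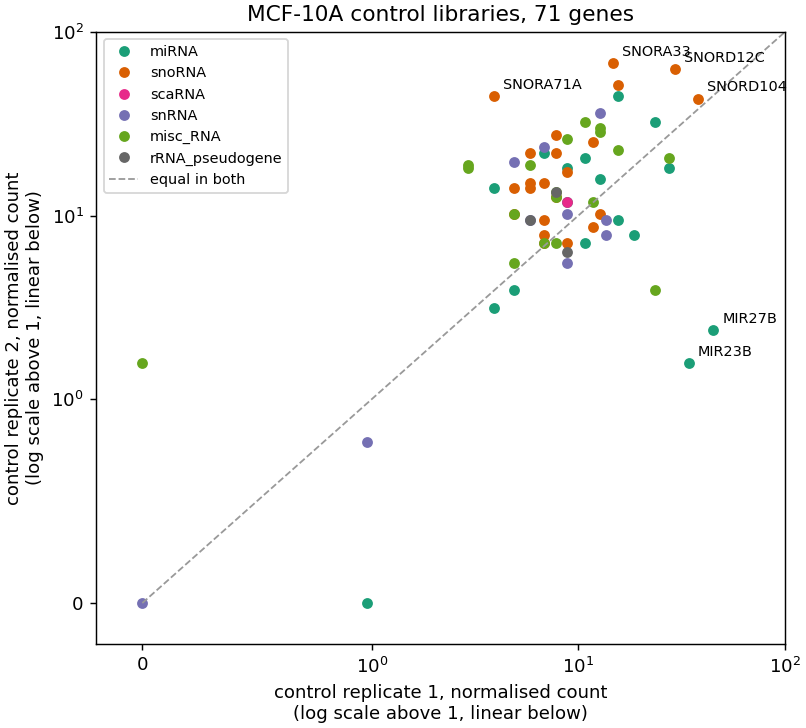
Normalised count of the 71 MCF-10A genes in control replicate 1 (x axis) and control replicate 2 (y axis), both on a log scale above 1 and linear below, coloured by class, with the line of equal values dashed. For 50 genes the value in control replicate 2 was higher, whereas MIR23B and MIR27B lie far below the line.

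Y RNA copies were the largest of the small RNA families compared here with a parent gene in MCF-10A, with 12 genes, 11 of which had no read after transit. Y RNAs bind the Ro60 protein. The copy on chromosome 2 (chr2:112579484-112579584, minus strand, outside other genes), 90.1% identical to RNY3, had 28 and 26 control reads, at least 7.13-fold above the limit of the constriction libraries. The copy on chromosome 12, in an intron of CD9 on the opposite strand, had 11 and 41 control reads, and the copy on chromosome 11, which overlaps an exon of FNBP4, had 13 and 38. None of these had a constriction read. The first of them has 6 other small RNA genes at least 90% identical to it and the last has 3, so their reads cannot be placed with certainty.

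The snRNA genes without a constriction read were pseudogene copies. RNU6ATAC18P, a copy of the U6atac RNA of the minor spliceosome (89.1% identical to RNU6ATAC) in an intron of DHRS3, had 13 and 46 control reads. The U6 copies RNU6-1266P and RNU6-322P, both outside other genes, had 7 and 30 and 5 and 25 control reads. Of the 5S ribosomal RNA copies, RNA5SP78 had 8 and 17 control reads, RNA5SP219 had 9 and 8, and RNA5SP383 had 6 and 12. RNA5SP219 was the only one of the 71 with a host in the table: AL024508.1 had 8 and 10 control reads and, like it, 0 and 0 after transit.

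The 7 genes with constriction reads in MCF-10A were 3 miRNA, 2 snRNA and 2 misc_RNA genes, and their reads came almost wholly from constriction replicate 1. In that library they had 248 to 513 reads, above the highest control count of any of the 71 genes, 86, and the remaining 64 genes had 0, with nothing in between. In constriction replicate 2 only MIR6784 and RN7SKP70 were read. Over all listed genes 6.31% were higher in constriction replicate 1 than in replicate 2, against 9.86% of these 71.

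MIR6784, in an intron of PLCD3 (chr17:45114367-45114433, minus strand), had 464 and 35 constriction reads against 4 and 4 control reads. Its means were 298 ± 370 and 3.54 ± 0.536 normalised counts (SD, n = 2 each), a log2 fold change of 6.04 ± 1.27 (SE) on the scale of log2(mean normalised count + 1). RN7SKP70, a 7SK copy that overlaps an exon of CLK4 on the same strand (chr5:178619728-178619998), had 389 and 28 constriction reads against 5 and 7 control reads, a log2 fold change of 5.33 ± 1.27 (SE). For these 2 genes both constriction libraries were above both control libraries. The size rests largely on constriction replicate 1: without it the log2 fold changes were 3.04 for MIR6784 and 2.27 for RN7SKP70, and with TMM factors they were 4.24 and 3.45. edgeR's adjusted p was 0.24 for MIR6784 and 0.365 for RN7SKP70, ranging over the alternatives from 0.00827 to 1.00 and from 0.0249 to 1.00.

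The other five were at 0 in constriction replicate 2, and the groups overlapped. MIR331 (chr12:95308420-95308513, plus strand, outside other genes) had 496 and 0 constriction reads against 5 and 5 control reads. Its neighbour MIR3685, 1409 bases downstream on the same strand, had 0 and 0 constriction reads against 9 and 15 control reads, so the neighbours went opposite ways in constriction replicate 1. MIR643, in an intron of ZNF766 (chr19:52281797-52281893), had 476 and 0 constriction reads against 1 and 0 control reads, a ratio of 606 with a 95% counting interval of 108 to 24005.

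RNU6-450P, a U6 copy outside other genes (chr17:59847438-59847544, minus strand), had 513 and 0 constriction reads against 0 and 0 control reads. Its mean was at least 117-fold above the limit of the control libraries, which rests on 1 library. RNU7-49P, a copy of the U7 RNA that acts in histone messenger RNA processing, lies opposite an intron of COPB1 and had 378 and 0 constriction reads against 1 and 1 control reads, a ratio of 241 with a 95% counting interval of 66.2 to 1996. The Y RNA copy of chromosome 8 outside other genes (chr8:97772313-97772425) had 248 and 0 constriction reads against 0 and 2 control reads, a ratio of 158 with a 95% counting interval of 43.3 to 1312. These counting intervals take reads as independent and leave out the difference between replicates. Without constriction replicate 1 the control mean of MIR331 was at least 1.42-fold above the limit of the remaining constriction library, so its direction turned. MIR643, RNU7-49P, the Y RNA copy and RNU6-450P then had both groups at or under the limit, and no direction was left. Without the control library that held its reads, the fold was at least 121 for MIR643 and at least 50.9 for the Y RNA copy.

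In MDA-MB-231 the direction was mostly the opposite. Of the 14 genes 12 had a higher mean after transit and 2 a lower one, where 33.3% of all 381 listed genes were lower. All 3 miRNA, all 3 snRNA and both snoRNA genes were higher, with 4 of 6 misc_RNA genes. In 9 of the 14 both control libraries had 0 reads, against 16.5% of the listed genes, and in 2 both constriction libraries had 0, against 7.35%. The counts were low, with a highest value of 61 reads.

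**Figure D4:**
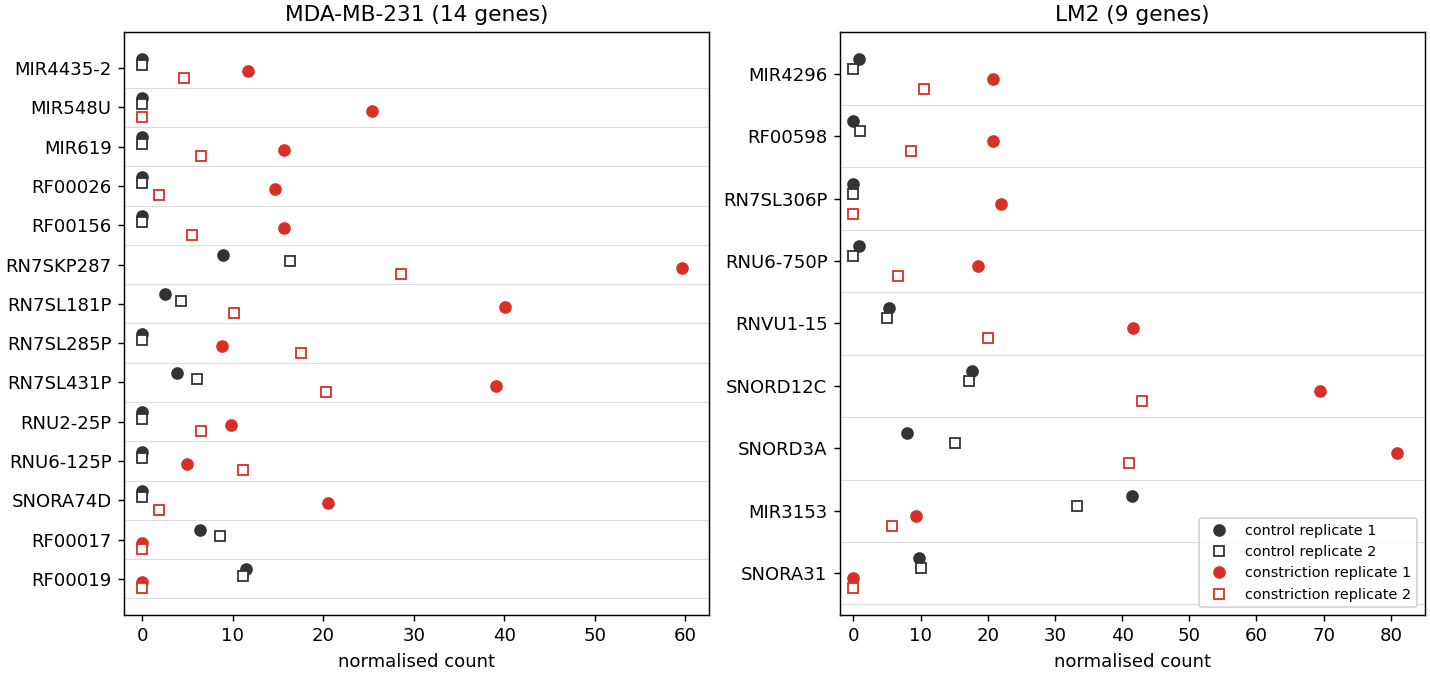
Normalised count (x axis) of each listed small noncoding RNA gene (y axis) in MDA-MB-231 and LM2, with control libraries in black, constriction libraries in red, replicate 1 as filled circles and replicate 2 as open squares. In most genes the red symbols lie to the right of the black ones, whereas RF00017 and RF00019 in MDA-MB-231 and MIR3153 and SNORA31 in LM2 show the reverse.

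edgeR called 0 of the 14 genes, each with an adjusted p of 1.00, and 14 had an unadjusted p under 0.05, as listing on the same libraries favours. DESeq2 and limma also called 0 of the 14, with 7 and 12 at an unadjusted p under 0.05. Of all listed genes 0.262% were called higher and 0% lower. The groups did not overlap in 13 of the 14, against 94.5% of all listed genes.

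The most reads were on copies of 7SK and 7SL, which are also the longest of the 14 genes. RN7SKP287, a 7SK copy opposite an intron of TTC17 (chr11:43435132-43435397), had 61 and 31 constriction reads against 7 and 19 control reads, a log2 fold change of 1.73 ± 0.63 (SE). RN7SL431P, a copy of the 7SL RNA of the signal recognition particle in an intron of TPM3 (chr1:154166245-154166549), had 40 and 22 constriction reads against 3 and 7 control reads, a log2 fold change of 2.38 ± 0.52 (SE). RN7SL181P, opposite an intron of RAB14 (chr9:121203159-121203435), had 41 and 11 constriction reads against 2 and 5 control reads, a log2 fold change of 2.56 ± 0.87 (SE). In all 3 both constriction libraries were above both control libraries. Without constriction replicate 1 the log2 fold changes were 1.34 for RN7SL181P and 1.12 for RN7SKP287, and without constriction replicate 2 that of RN7SL181P was 3.22. RN7SL285P, opposite an intron of ZFAND3 (chr6:37832922-37833185), had 9 and 19 reads after transit and none in control cells, at least 4.13-fold above the limit of the control libraries.

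The 3 miRNA genes had no control read. MIR619, in an intron of SSH1 (chr12:108836908-108837006), had 16 and 7 reads after transit, at least 3.46-fold above the limit, or at least 2.03-fold without constriction replicate 1. MIR4435-2, in an intron of its long noncoding host MIR4435-2HG (chr2:111321013-111321086), had 12 and 5, and 2 other annotated genes, 1 of them a small RNA gene, hold a sequence at least 90% identical. MIR548U, in an intron of PRIM2 (chr6:57390132-57390212), had 26 and 0, so its groups overlapped at 0.

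Both snoRNA genes and all 3 snRNA genes also had no control read. RF00156, in an intron of TMX1 (chr14:51244090-51244224), had 16 and 6 reads after transit. SNORA74D, an H/ACA snoRNA in introns of MATR3 and SNHG4 and opposite an intron of SIL1 (chr5:139276180-139276320), had 21 and 2, so that 1 library carried nearly all of it, and without that library it was not above the limit of the control libraries. RNU2-25P, a copy of the U2 RNA opposite an intron of SMARCA2, had 10 and 7, and the U6 copy RNU6-125P, in an intron of PKN2, had 5 and 12.

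RF00026, another U6 copy, had 15 and 2 reads after transit and lies in an intron of ST3GAL3, a sialyltransferase gene (chr1:43716467-43716556). It was the only one of the 14 whose host was listed, and ST3GAL3 itself had 234 and 227 constriction reads against 98 and 155 control reads, also higher in both constriction libraries. The constriction libraries differed as well: normalised counts were higher in constriction replicate 1 than in replicate 2 for 10 of the 14 genes, against 48.6% of all listed genes, and its part in the direction was not tested. Without constriction replicate 1 the fold or its lower bound moved by over 1.5 times in 8 of the 14 genes. Among these, RF00156 was at least 1.74-fold and MIR4435-2 at least 1.45-fold above the limit, MIR548U had no read left and RF00026 was not above the limit. Without constriction replicate 2 it moved that far in 5 of the 14, and without either control library in 0 of the 14. RNU6-125P was the one of those 5 whose bound fell, from at least 2.50-fold to at least 1.53-fold.

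The 2 genes with a lower mean in MDA-MB-231 had no read after transit. The Y RNA copy of chromosome 20 shown above had 9 and 13 control reads, or 11.3 ± 0.168 normalised counts (SD, n = 2), at least 3.96-fold above the limit of the constriction libraries. RF00017, a 7SL copy outside other genes (chr12:55731264-55731531), had 5 and 10 control reads, at least 2.62-fold above that limit.

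In LM2, 7 of the 9 genes had a higher mean after transit and 2 a lower one, where 46.4% of all 97 listed genes were lower. The higher genes were 3 of 4 snoRNA genes, both snRNA genes, 1 of 2 miRNA genes and the 1 misc_RNA gene. edgeR called 0 of the 9, each with an adjusted p of 1.00, with 4 at an unadjusted p under 0.05, and it called 0% of all listed genes in either direction. DESeq2 called 0 with 0 at an unadjusted p under 0.05, and limma called 0 with 8. With the replicate number as a block, RN7SL306P and SNORA31 were called, the lowest adjusted p being 0.00857, and with crossed numbers 0 were called. The groups did not overlap in 8 of the 9, against 82.5% of all listed genes.

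SNORD3A, the U3 snoRNA that acts in the cleavage of the ribosomal RNA precursor, had the most reads after transit and, at 699 bases, is the longest of the 9 genes. It had 70 and 43 constriction reads against 9 and 15 control reads (chr17:19188016-19188714, plus strand, outside other genes), a log2 fold change of 2.31 ± 0.62 (SE). Sequence at least 90% identical stands in 3 other annotated genes, 2 of them small RNA genes. SNORD12C had 60 and 45 constriction reads against 20 and 17 control reads, or 56.2 ± 18.7 and 17.4 ± 0.333 normalised counts (SD, n = 2 each), a log2 fold change of 1.64 ± 0.33 (SE). RF00598, opposite an intron of ERBIN (chr5:65961183-65961319), had 18 and 9 constriction reads against 0 and 1 control reads, a ratio of 30.0 with a 95% counting interval of 4.95 to 1228. All 3 were above both control libraries in both constriction libraries.

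RNVU1-15 is a variant gene of U1, the snRNA that pairs with the 5′ splice site through its own 5′ end. It had 36 and 21 constriction reads against 6 and 5 control reads, or 30.8 ± 15.3 and 5.17 ± 0.171 normalised counts (SD, n = 2 each), a log2 fold change of 2.37 ± 0.49 (SE), or 1.77 without constriction replicate 1. It lies outside other genes (chr1:144412576-144412740, plus strand) and is 89.6% identical to RNU1-1. Its sequence is shown with positions 3 to 11 in capitals, where it differs from RNU1-1 by the 1 substitution C9T, counted from 1 at the 5′ end.
RNVU1-15: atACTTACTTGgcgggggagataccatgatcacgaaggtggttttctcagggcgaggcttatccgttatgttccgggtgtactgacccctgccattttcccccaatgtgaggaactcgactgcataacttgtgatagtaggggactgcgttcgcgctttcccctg

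The other LM2 genes with a higher mean had at most 1 control read. MIR4296, in an intron of CTBP2 (chr10:125032783-125032870), had 18 and 11 constriction reads against 1 and 0 control reads, a ratio of 32.2 with a 95% counting interval of 5.34 to 1316. RNU6-750P, a U6 copy in introns of SLC35A3 and AC118553.2, had 16 and 7 constriction reads against 1 and 0 control reads, a ratio of 25.6 with a 95% counting interval of 4.15 to 1053. RN7SL306P, a 7SL copy opposite an intron of TNPO3, had 19 and 0 after transit and none in control cells, so its groups overlapped at 0. In 8 of the 9 genes the normalised count was higher in constriction replicate 1 than in replicate 2, against 60.8% of all listed genes. The fold or its lower bound moved by over 1.5 times in 4 of the 9 genes without constriction replicate 1, where RN7SL306P had no read left, in 2 without constriction replicate 2, and in 3 without either control library in turn. Without the 1 control library that held a read, the fold was at least 5.17 for MIR4296, at least 4.16 for RNU6-750P and at least 5.56 for RF00598.

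MIR3153 and SNORA31 had the lower means in LM2. MIR3153, in an intron of CKS2 (chr9:89312225-89312306), had 8 and 6 constriction reads against 47 and 33 control reads, or 7.49 ± 2.50 and 37.4 ± 5.74 normalised counts (SD, n = 2 each), a log2 fold change of -2.18 ± 0.34 (SE). It had the most control reads of the 9. SNORA31, an H/ACA snoRNA that overlaps an exon of TPT1 on the same strand (chr13:45337480-45337609), had 11 and 10 control reads and 0 and 0 after transit, at least 3.12-fold lower.

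Among the 92 genes, 2 were listed in a pair of lines. SNORD12C was at 0 and 0 reads after transit against 30 and 80 in MCF-10A, and at 60 and 45 against 20 and 17 in LM2, so that every constriction library of MCF-10A lay below its controls and every one of LM2 above. In MCF-10A this was at least 13.8-fold lower, or at least 8.74-fold without control replicate 2, and in LM2 the log2 fold change was 1.64 ± 0.33 (SE). edgeR's adjusted p was 0.00468 in MCF-10A and 1.00 in LM2, where the unadjusted p was 0.103. No test of the difference between lines was made, as each line was normalised on its own. The Y RNA copy of chromosome 20 had no read after transit in both lines where it was listed, with 3 and 24 control reads in MCF-10A and 9 and 13 in MDA-MB-231. Without control replicate 2 it was not above the limit in MCF-10A. Levels of a gene in a line whose table does not list it were not analysed here.

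**Figure D5:**
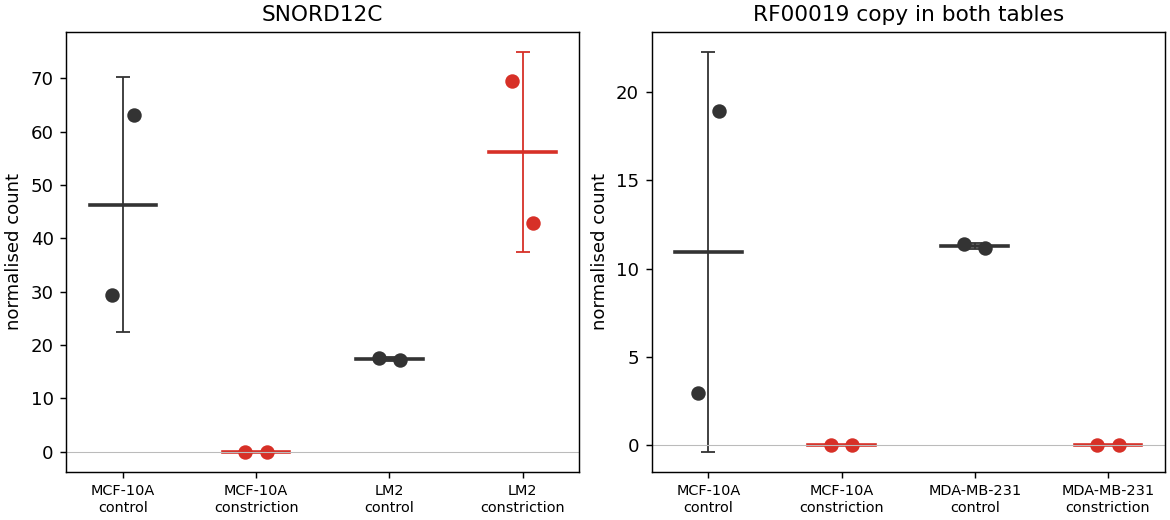
Normalised count (y axis) of the 2 genes listed in a pair of cell lines, by line and group (x axis). Points are the 2 libraries, thick bars their mean and error bars the SD (n = 2). SNORD12C lies at 0 after transit in MCF-10A and at 42.9 and 69.4 in LM2, and the Y RNA copy lies at 0 after transit in both lines.

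Genes that make, bind or host these RNAs were looked up in fixed lists. Of 7 lists of 12 to 33 genes, for microRNA processing, snoRNP proteins, spliceosomal snRNP proteins and their assembly, the snRNA-activating complex with Integrator and RNA polymerase III, proteins that bind Y RNA, 7SL and 7SK, 3′ processing and decay, and snoRNA host genes, 0 genes were listed in any of the 3 lines, against the shares of all genes listed that are given above with the hosts. The genes of the 7 lists were not matched to all genes by read level, so those shares are not a like comparison. The list of snoRNA hosts leaves out some hosts of the genes described here, among them SNHG25, listed in MDA-MB-231, and MATR3, listed in MCF-10A. A gene outside the tables was at an unadjusted p of 0.05 or more in the authors' comparison or was not tested there, and its level was not analysed here.

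By the authors' p-value, the genes nearest to the limit of listing in MCF-10A were RF00015, a U4 copy with 9 and 7 control reads, and SNORA26 and a second Y RNA copy of chromosome 8 with 7 and 9 control reads each, all with 0 and 0 reads after transit. In MDA-MB-231 they were RF00017 and RN7SKP287, and in LM2 SNORD12C and RNU6-750P.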

How the data were processed

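Poly-T bead RNA sequencing of MCF-10A, MDA-MB-231 and LM2 cells was analysed from the deposited tables, with 2 constriction and 2 control libraries per line. The labels' notes name fastp, HISAT2 (2.0.5), featureCounts (1.5.0-p3) and DESeq2 (1.20.0) on GRCh38, with which the authors made the deposited read counts per gene. The deposited normalised counts (signal) are these counts divided by the authors' size factor. The deposited FPKM were used only to recover library totals, together with the gene length that the authors deposited (score). The authors' deposited p-values, raw and adjusted, were used to learn the limit of listing, how many genes were adjusted over and which members lay nearest to that limit. Their fold changes and the GO term lists were not used.

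Members are genes of 8 biotypes, as the opening of the results gives them. Members, gene lists and tests were chosen with earlier results of these data known. Positions, hosts and sequences are from GENCODE v29, whose names and spans matched all members. Similar genes were sought with BLAST (2.17.0).

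The main test was edgeR (4.0.16) quasi-likelihood on counts with the authors' size factors, within each line, two-sided, called at an adjusted p under 0.05. Benjamini-Hochberg adjustment was over 19236 (MCF-10A), 23976 (MDA-MB-231) and 30209 (LM2) genes, with genes outside the tables at a p of 1. DESeq2 (1.42.0), limma (3.58.1), TMM factors, library totals, a minimum mean of 10 normalised counts, the replicate block, members overlapping no other exon and each library left out were alternatives. All fits, the main one included, used listed genes only. The newer dispersion estimate of edgeR and crossed replicate numbers were added after the data were seen.

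Log2 fold changes are of mean normalised counts with a pseudocount of 1, with an SE from the spread of 2 libraries per group. A group at 0 was set against 3 reads per library, which gives a bound in place of a fold change. Groups with 1 to 3 reads in all got a ratio with an exact conditional 95% interval. Genes named are all of MDA-MB-231 and LM2, those in 2 tables, and in MCF-10A those with a constriction read or a higher mean and the 5 of each biotype with the highest mean. The 2 of each table nearest to the listing limit are given by values. SNORD69, RF00569, MIR3685, MIR23B, MIR27B and MIRLET7D were named after their values were seen.

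The methods say that experiments were repeated, with control and constriction cells listed together for each. Replicate numbers were therefore taken to pair libraries in the alternative with the replicate block. The main test had no block and left this pairing out. The correlation of the deviations of same-numbered libraries was -0.0427 for MCF-10A, 0.0827 for MDA-MB-231 and -0.0317 for LM2, and over genes with a mean of at least 10 it was -0.11, 0.159 and 0.048 in that order. For one LM2 constriction library the title gives replicate 2 and the description replicate 1, and 2 was used.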

Additional observations from a re-analysis of the deposited data

Results flagged for a closer look

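SNORD12C went opposite ways in a pair of cell lines: every constriction library of MCF-10A lay below both controls and every constriction library of LM2 lay above both. In MCF-10A, with both constriction libraries at 0 reads, the bound of the log2 fold change was -3.78, and in LM2 the log2 fold change was 1.64. edgeR gave an adjusted p of 0.00468 for MCF-10A and of 1.00 for LM2. In LM2 its unadjusted edgeR p was 0.103, and of the LM2 members it lay nearest to the limit of listing. In MCF-10A no member was called with library totals. The difference was not tested, and the tables of the lines were normalised separately.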

How the results depend on the processing

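The number of MCF-10A genes called, 64 with edgeR and the authors' size factors, was 69 with DESeq2 (5 of them higher), 61 with TMM factors, 61 with the replicate block, 60 among genes overlapping no exon of another gene, 39 with limma, 35 with the newer dispersion estimate, 14 with a minimum mean of 10, 0 with library totals and 0 with the crossed replicate block. With a library left out it ran from 0 to 15. In MDA-MB-231 it was 0 under each setting run, which did not include crossed numbers, and in LM2 it was 0 except for 2 with the replicate block. TMM factors, computed on listed genes only, moved MCF-10A constriction replicate 1 by 2.93 and replicate 2 by -2.01 on the log2 scale and turned no direction. With a minimum mean of 10, lower genes were 14 of 21 in MCF-10A, 0 of 3 in MDA-MB-231 and 1 of 4 in LM2, genes without a constriction read were 14, 0 and 0, and genes with groups apart were 16, 3 and 4. Among genes overlapping no exon of another gene, 1 of 8 LM2 genes was lower and 0 had no constriction read. Genes without a constriction read in LM2 ran from 1 to 2 with a library left out. Without constriction replicate 1 the log2 fold change of MIR331, with the pseudocount, turned to -2.44, since its constriction reads were in that library, and without constriction replicate 2 it was 6.79. No fold could be given with a library left out in 9 cases where both groups were at or under 3 reads per library: 4 genes of MCF-10A, 3 of MDA-MB-231 and 1 of LM2 without constriction replicate 1, and 1 of MCF-10A without control replicate 2. Calls rest on 2 libraries per group and on counts mostly under 100, and genes were listed by a test on the same libraries. The edgeR, DESeq2 and limma fits all used listed genes only, so their numbers of calls are not independent of that listing. Other causes of changed calls were not tested.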
